A study of Homo sapiens with 8 samples.

Results

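The genes described are 10 regulators of apoptosis of the BCL2 family, matched by their symbols in the deposited table of the RNA-seq experiment. They are the antiapoptotic genes BCL2, BCL2L1, BCL2L2 and MCL1, the pore-forming effectors BAX and BAK1, and the BH3-only genes BCL2L11, BID, BBC3 and PMAIP1. Each symbol named 1 row of the table, so the set holds 10 of its 47591 genes. All 10 passed the filter on low values and are among the 18947 genes tested. The libraries were made from polyadenylated RNA of SH-SY5Y cells, which derive from a human neuroblastoma. G2 and SCR cells gave 3 libraries each and WT cells gave 2. G2 was made with a CRISPR/Cas9 guide that targets PRPF40B, which encodes a splicing factor, SCR was made with a scrambled guide as a negative control, and WT was not modified. After puromycin selection, edited cells were raised from single colonies by limiting dilution, and the methods do not say this separately for SCR. Both G2 and SCR were kept in puromycin, and WT is not listed among the lines that were. G2 is 1 line made with 1 guide. The edit of PRPF40B, the colony it was raised from and its later culture therefore cannot be told apart in G2/SCR or G2/WT. In G2/WT the selection and the puromycin cannot be told apart from these either. The same holds in SCR/WT for the scrambled guide, the selection, the puromycin and any colony that SCR was raised from. The labels call the libraries of a line biological replicates without saying whether cultures were separate, so the p-values measure the spread between these libraries.

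Proteins of the BCL2 family decide whether the outer membrane of mitochondria stays intact. BAX and BAK1 can assemble into pores that release cytochrome c, which starts the caspase cascade. BCL2, BCL2L1 (BCL-XL), BCL2L2 (BCL-W) and MCL1 hold them back, and BH3-only proteins such as BCL2L11 (BIM), BID, BBC3 (PUMA) and PMAIP1 (NOXA) bind the antiapoptotic proteins or activate the effectors. The study examined cell death in WT and G2 cells by other means, and the comparisons below ask how the messenger RNAs of the family differed between the lines.

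What the 10 proteins share is the BH3 motif, the stretch with which a BH3-only protein enters the groove of an antiapoptotic partner. The coding sequence around it is printed for each member as the stretch they have in common. Capitals mark a leucine codon (CTN, TTA or TTG), followed after 3 further codons by a GGN or GCN codon and an aspartate codon (GAC or GAT). The motif was searched in frame on the coding strand only, in MANE Select coding sequences of GENCODE v44 on hg38, and each run holds 36 bases.

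MCL1: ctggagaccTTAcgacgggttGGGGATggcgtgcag
BCL2: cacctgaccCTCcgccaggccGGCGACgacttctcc
BCL2L1: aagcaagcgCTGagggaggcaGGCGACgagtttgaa
BCL2L2: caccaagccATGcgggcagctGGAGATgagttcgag
BAX: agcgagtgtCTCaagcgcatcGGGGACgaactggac
BAK1: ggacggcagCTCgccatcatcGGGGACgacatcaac
BCL2L11: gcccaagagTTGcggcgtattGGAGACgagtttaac
BID: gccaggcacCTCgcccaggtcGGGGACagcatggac
BBC3: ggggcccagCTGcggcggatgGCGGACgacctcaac
PMAIP1: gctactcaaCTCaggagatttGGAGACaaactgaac

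The motif occurred once in every member except BCL2L2, where no leucine form was found and the run with ATG in the first place is shown. The marked codon is number 29 of 54 in PMAIP1, the shortest of the coding sequences, and number 213 of 350 in MCL1, the longest. The match is a description of the letters and not by itself a functional site, since 25.2% of all 19061 MANE Select coding sequences held the motif at least once, and 6.62% held the form with ATG. On hg38 the runs lie at chr1:150578868-150578903 for MCL1, chr18:63318352-63318387 for BCL2, chr20:31721925-31721960 for BCL2L1 and chr14:23307894-23307929 for BCL2L2. Those of the effectors lie at chr19:48955778-48955813 for BAX and chr6:33575390-33575425 for BAK1. Those of the BH3-only genes lie at chr2:111150094-111150129 for BCL2L11, chr22:17739418-17739453 for BID, chr19:47226582-47226617 for BBC3 and chr18:59902664-59902699 for PMAIP1. The runs of BCL2L2, BAX, BCL2L11 and PMAIP1 are on the plus strand and the others on the minus strand, and each lies within 1 coding exon. The RNA-seq values are totals per gene and do not resolve this stretch.

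Values are normalized counts, that is the count of a gene in a library divided by the size factor of the library. The counts recovered from them add up to between 59804395 and 81080747 per library. About 59.1% to 63.0% of small counts were multiples of 3, so a count is not taken as 1 independent fragment. Ribosomal RNA genes took up 4.99% and 4.778% of the normalized counts in WT and between 0.41% and 0.612% in the other libraries, and their part in the comparisons with WT was not tested. Normalized counts summed to 77225106 and 71294311 in the WT libraries and to between 61135884 and 65484633 in the others, so values are also given, where it matters, with all libraries scaled to the same total. PRPF40B (GSHG0009006) had 866 ± 44.5 (SD, n = 3) normalized counts in G2, 1820 ± 215 (SD, n = 2) in WT and 1676 ± 8.79 (SD, n = 3) in SCR, that is -0.95 on the log2 scale in G2/SCR and -1.07 in G2/WT. All 8 adrenergic neuroblastoma markers were detected above the filter, and their summed normalized counts were 85869 to 94538 in G2, 170911 to 184019 in SCR and 185433 to 200030 in WT. The summed counts of the mesenchymal markers, of which 7 of 8 passed the filter, were 237934 to 243091 in G2, 111081 to 118330 in SCR and 81314 to 93102 in WT. These sums separated G2 from the other lines, but abundant markers weigh most in a sum and single markers are not given. The part of the marker differences in those of the BCL2 family was not tested. Of 4 immune markers 1 passed the filter and CD3E was at 0 in every library, and the 4 epithelial markers summed to between 102 and 160.

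Across lines, limma was fitted to log2(normalized count + 1), and DE genes, those called higher or lower, had to reach both the 1.5-fold threshold and an unadjusted p of 0.05 or less. Adjusted p-values are Benjamini-Hochberg values over all 18947 tested genes. In G2/SCR, 1 member was called higher (BAK1) and 2 were called lower (BBC3 and BID). Of all tested genes 15.1% were called higher and 11.8% lower in that comparison, 26.9% in all. In G2/WT, limma called 0 members higher, with 4 higher at an unadjusted p below 0.05, and 2 lower (BID and BCL2L11), against 17.7% and 12.2% of all tested genes, 29.9% in all. In SCR/WT, limma called 1 member higher (BBC3) and 0 lower, with 1 lower at an unadjusted p below 0.05, against 10.7% and 5.63% of all tested genes, 16.3% in all. Without a fold threshold, the members with an adjusted p of 0.05 or less numbered 6 in G2/SCR, 6 in G2/WT and 3 in SCR/WT, against 49.1%, 52.6% and 35.4% of all tested genes. The counts over the members were near these shares of all genes. The median of the 10 log2 fold changes was 0.05 for G2/SCR, -0.05 for G2/WT and -0.04 for SCR/WT, beside -0.01, 0.00 and 0.01 over all tested genes.

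**Figure D1:**
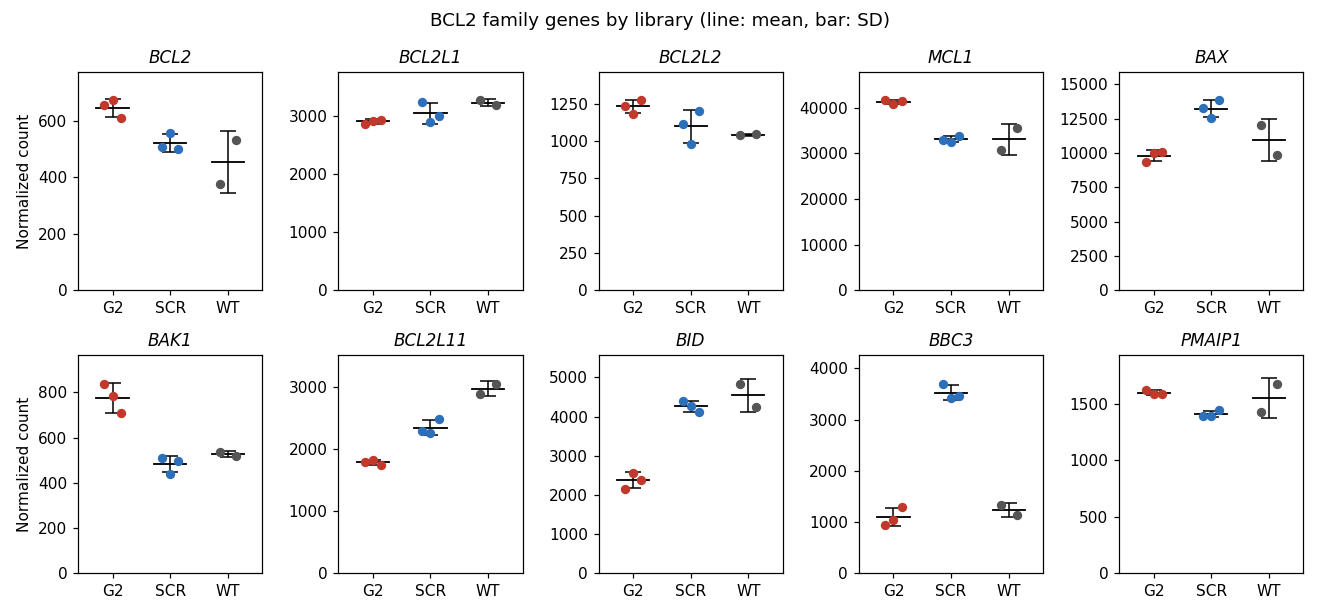
Normalized counts (linear axes from 0, a separate scale for each gene) of the 10 BCL2 family genes, with 1 point per library of G2 (red, n = 3), SCR (blue, n = 3) and WT (grey, n = 2), a line at the mean and a bar for the SD. The 3 G2 points lie outside all SCR and WT points for BCL2, MCL1, BAK1, BCL2L11 and BID, and the SCR points of BBC3 lie far above those of both other lines.

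Libraries of both lines did not overlap for 8 of 10 members in G2/SCR, for 7 in G2/WT and for 4 in SCR/WT. Among all tested genes this was so for 61.8%, 65.4% and 55.3%. The 3 G2 libraries lay outside the range of all 5 SCR and WT libraries for 5 members, BCL2, MCL1, BAK1, BCL2L11 and BID, and for 42.5% of all tested genes. The plot of normalized counts by library shows these 5 genes with G2 on 1 side. The G2 values of BCL2, MCL1 and BAK1 were above those of the controls, and the G2 values of BCL2L11 and BID were below them. Since a library is made from many cells, fewer cells with a transcript and less of it in each cell cannot be told apart.

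**Figure D2:**
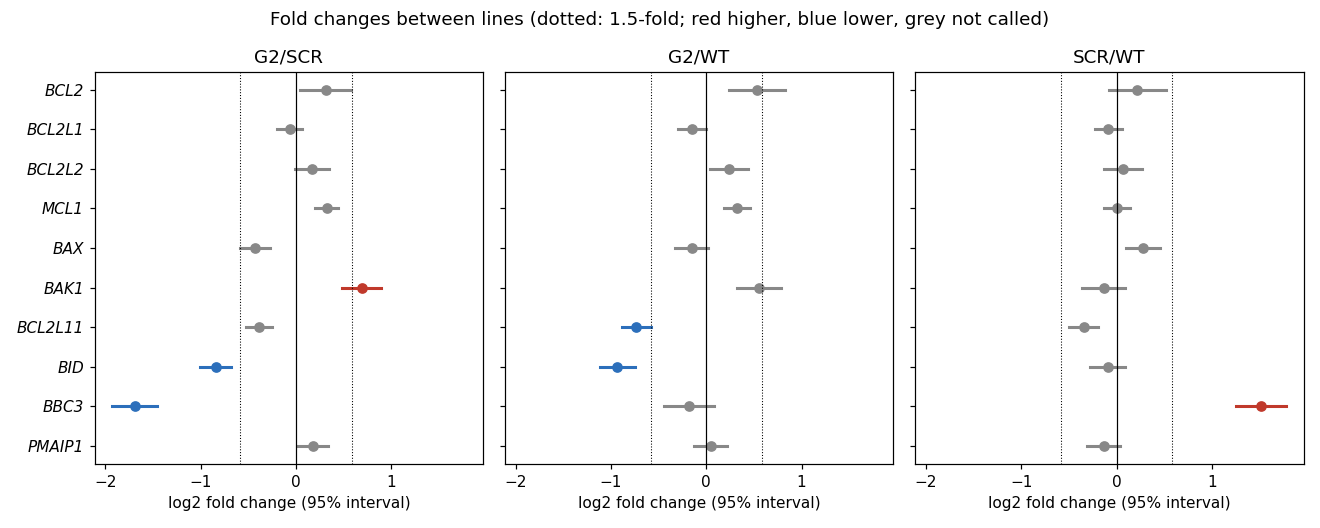
Log2 fold changes (points) with 95% intervals (bars) of the 10 genes in G2/SCR, G2/WT and SCR/WT, with dotted lines at a fold change of 1.5. BID is called lower (blue) in both G2 comparisons, and BBC3 is called lower in G2/SCR and higher (red) in SCR/WT with an interval across 0 in G2/WT.

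Among the antiapoptotic genes, MCL1 and BCL2 lay higher in G2 than in every control library, by less than the fold threshold, and BCL2L1 and BCL2L2 were not called in any comparison. MCL1 (GSHG0002983, chr1:150574554-150579610), whose protein is short-lived and constantly renewed, had 41656, 40803 and 41530 normalized counts in G2 replicates 1 to 3. It had 32960, 32506 and 33878 in SCR and 30742 and 35572 in WT. The G2 values were tightly grouped above all others, and SCR lay within the spread of WT. G2/SCR gave a log2 fold change of 0.32 (standard error, SE, 0.06, adjusted p = 0.000537, limma). G2/WT likewise gave 0.32 (SE 0.06, adjusted p = 0.00107), and both lay below the fold threshold. SCR/WT gave 0.00. With libraries scaled to the same total, G2/WT was 0.51 and SCR/WT 0.28, so the level of SCR against WT depends on the scaling.

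BCL2 (GSHG0020867, chr18:63123346-63320128), the founding member of the family, had 657, 673 and 610 normalized counts in G2. SCR held 507, 558 and 501, and WT held 376 and 533. All G2 libraries were above all controls, but the WT pair was far apart. BCL2 was not called in G2/SCR, with a log2 fold change of 0.31 (SE 0.12, adjusted p = 0.0518). G2/WT gave 0.53 (SE 0.13, adjusted p = 0.00586), below the fold threshold, and ran from 0.28 without WT replicate 1 to 0.78 without WT replicate 2, the latter above it. Scaling to the same total gave 0.71, also above it.

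For BCL2L1 (GSHG0027268, chr20:31664453-31723963), whose long isoform BCL-XL protects cells and whose short isoform does not, the values were 2874, 2925 and 2946 in G2. They were 3250, 2904 and 3013 in SCR and 3279 and 3200 in WT. G2 overlapped SCR and lay below WT. G2/SCR gave a log2 fold change of -0.07 with a 95% interval from -0.20 to 0.06. G2/WT gave -0.15 (adjusted p = 0.072), which became 0.03 when libraries were scaled to the same total. The isoforms are summed in 1 value per gene, so their proportions are not seen here.

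BCL2L2 (GSHG0012020, chr14:23306807-23311751), which encodes the neuronally expressed BCL-W, had 1238, 1185 and 1273 normalized counts in G2, 1115, 984 and 1202 in SCR and 1038 and 1047 in WT. G2 overlapped SCR and lay above WT. G2/SCR gave a log2 fold change of 0.17 (95% interval from -0.01 to 0.35, adjusted p = 0.111), and G2/WT gave 0.24 (adjusted p = 0.0438). GENCODE places a readthrough transcript of BCL2L2 and PABPN1 on the same strand, so its count may be shared with that gene.

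The effectors differed in opposite directions in G2/SCR. BAK1 was called higher, whereas BAX was lower by less than the fold threshold. BAK1 (GSHG0037702, chr6:33572552-33580283), which sits in the mitochondrial membrane, had 838, 784 and 707 normalized counts in G2. There were 509, 441 and 494 in SCR and 538 and 519 in WT. Every G2 library exceeded every control library. BAK1 was 1.61-fold higher in G2 than in SCR (log2 fold change 0.69, SE 0.09, adjusted p = 7.2e-05). For G2/WT the value of 0.55 (SE 0.11, adjusted p = 0.00086) missed the fold threshold, and it passed it at 0.62 without G2 replicate 3 and at 0.74 with libraries scaled to the same total.

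BAX (GSHG0021839, chr19:48954875-48961798), which moves from the cytosol to mitochondria when activated, had 9323, 10027 and 10075 normalized counts in G2. The SCR libraries held 13295, 12563 and 13836, and the WT libraries 12029 and 9888. SCR was above all others, and G2 overlapped WT. G2/SCR gave a log2 fold change of -0.43 (SE 0.07, adjusted p = 0.000359). SCR/WT gave 0.28 (adjusted p = 0.0191). G2/WT gave -0.15 (adjusted p = 0.132), and scaling to the same total turned it to 0.03. In the deposited annotation BAX lies wholly within the span given for FTL, ferritin light chain, over 6924 bases, and reads there could have been attributed to either. In GENCODE v44 the genes do not overlap, with FTL starting at chr19:48965309 and BAX ending at chr19:48961798. FTL had 63045 ± 693 (SD, n = 3) normalized counts in G2, 69921 ± 6163 (SD, n = 2) in WT and 73269 ± 5262 (SD, n = 3) in SCR, and its part in the BAX values was not tested.

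The BH3-only genes held the largest differences of the set. BBC3 was highest in SCR, BID was lowest in G2, BCL2L11 was highest in WT and lowest in G2, and PMAIP1 was not called in any comparison. BBC3 (GSHG0023023, chr19:47220822-47232948), which encodes PUMA, had 945, 1051 and 1299 normalized counts in G2 and 1336 and 1137 in WT. The SCR libraries held 3702, 3426 and 3455. No SCR library came near those of G2 or WT, which overlapped each other. BBC3 was 3.21-fold lower in G2 than in SCR (log2 fold change -1.69, SE 0.11, adjusted p = 8.2e-08, limma) and 2.85-fold higher in SCR than in WT (log2 fold change 1.52, SE 0.12, adjusted p = 3.3e-06). G2/WT gave -0.18 with a 95% interval from -0.44 to 0.08, and 0.01 with libraries scaled to the same total. The pattern of calls in opposite directions in G2/SCR and SCR/WT without a call in G2/WT was shared by 3.6% of all tested genes. G2/SCR and SCR/WT share the SCR libraries, so the calls are not independent.

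BID (GSHG0028818, chr22:17734138-17774665), which links death receptors to mitochondria after cleavage by caspase 8, had 2164, 2573 and 2394 normalized counts in G2. It had 4399, 4269 and 4111 in SCR and 4841 and 4251 in WT. The G2 libraries were far below the 5 controls, and SCR overlapped WT. BID was 1.79-fold lower in G2 than in SCR (log2 fold change -0.84, SE 0.07, adjusted p = 1.7e-06) and 1.91-fold lower than in WT (log2 fold change -0.94, SE 0.08, adjusted p = 1.9e-06). SCR/WT gave -0.09, which turned to 0.19 under scaling to the same total. No other member was called alike in G2/SCR and G2/WT while uncalled in SCR/WT, a pattern that 13.8% of all tested genes had. The libraries of G2 enter both comparisons, which are therefore not independent. An entry without a symbol, with a mean of 343 normalized counts, overlaps BID over 1077 bases.

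BCL2L11 (GSHG0024300, chr2:111120914-111168445), which encodes BIM, a binder of all antiapoptotic members, had 1803, 1823 and 1743 normalized counts in G2. It had 2288, 2269 and 2493 in SCR and 2894 and 3060 in WT. The 3 lines did not overlap. G2/SCR gave a log2 fold change of -0.39 (SE 0.06, adjusted p = 0.000236) and SCR/WT gave -0.34 (SE 0.07, adjusted p = 0.00266), both below the fold threshold. With libraries scaled to the same total SCR/WT was -0.07. BCL2L11 was called 1.66-fold lower in G2 than in WT (log2 fold change -0.73, SE 0.07, adjusted p = 3.3e-06), and with libraries scaled to the same total the value of -0.55 no longer passed.

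PMAIP1 (GSHG0020420, chr18:59899996-59904305), which encodes NOXA, a selective partner of MCL1, had 1624, 1584 and 1585 normalized counts in G2, 1388, 1396 and 1441 in SCR and 1425 and 1679 in WT. G2 lay above SCR, and WT overlapped both. G2/SCR gave a log2 fold change of 0.18 (adjusted p = 0.054). G2/WT gave 0.05 (adjusted p = 0.658), and -0.07 without WT replicate 1. SCR/WT gave -0.14, which turned to 0.14 with libraries scaled to the same total.

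The ratio of 2 members within a library does not depend on the size factor and was computed for 5 pairs, as a description without a test. The log2 ratio of MCL1 over PMAIP1 was 4.68, 4.69 and 4.71 in G2, 4.57, 4.54 and 4.55 in SCR and 4.43 and 4.41 in WT. The 3 lines did not overlap. The log2 ratio of BCL2L1 over BCL2L11 was 0.67, 0.68 and 0.76 in G2, 0.51, 0.36 and 0.27 in SCR and 0.18 and 0.06 in WT. G2 was again highest and WT lowest without overlap.

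The log2 ratio of BCL2 over BAX was -3.83, -3.90 and -4.05 in G2 and -4.71, -4.49 and -4.79 in SCR. The WT libraries gave -5.00 and -4.21. All G2 libraries were above all others, while WT spanned the whole of SCR. BCL2L1 over BCL2 was 2.17 ± 0.09 (SD, n = 3) in G2, 2.85 ± 0.38 (SD, n = 2) in WT and 2.55 ± 0.15 (SD, n = 3) in SCR on the log2 scale. For MCL1 over BCL2 the libraries of G2 lay between 5.92 and 6.09 and those of SCR between 5.86 and 6.08, so these lines overlapped almost entirely, while WT gave 6.35 and 6.06. The ratios compare counts of genes of unequal length, so their differences between lines can be read but not their size as such.

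**Figure D3:**
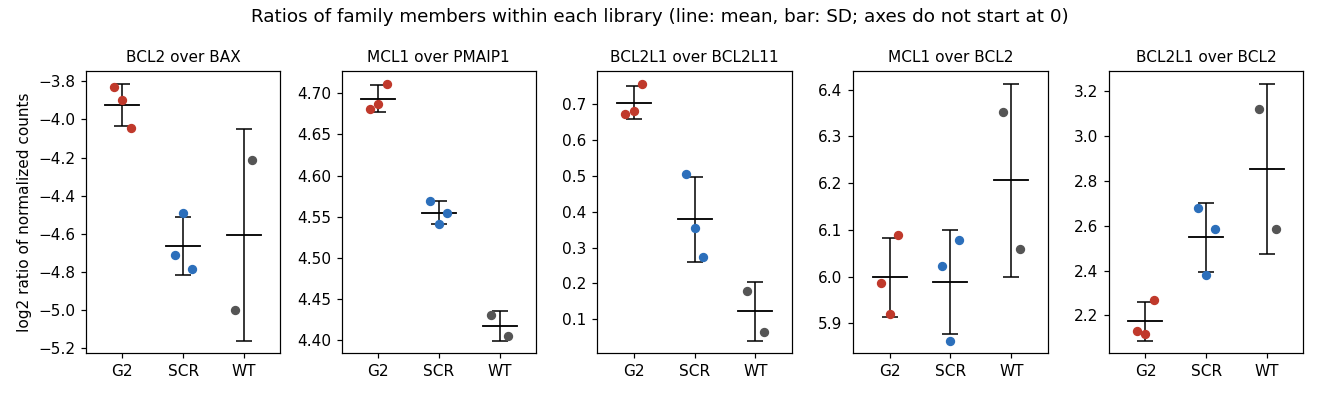
Log2 ratios of normalized counts of 5 pairs of family members, with 1 point per library of G2 (red, n = 3), SCR (blue, n = 3) and WT (grey, n = 2), a line at the mean and a bar for the SD. The axes do not start at 0 and differ between panels. The lines do not overlap for MCL1 over PMAIP1 and BCL2L1 over BCL2L11, and the WT pair is widest for BCL2 over BAX, from -5.00 to -4.21.

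Levels were compared between genes per kilobase of exon, taking all exons of the gene in GENCODE v44. In G2, MCL1 was highest with 6643 ± 74.0 (SD, n = 3) normalized counts per kilobase, followed by BAX with 3791 ± 163 (SD, n = 3). BCL2 was lowest with 51.3 ± 2.59 (SD, n = 3). MCL1 led, BAX came next and BCL2 was last in each line, but in SCR the range of MCL1, 5224 to 5445 per kilobase, overlapped that of BAX, 4856 to 5348. With the length of the MANE Select transcript alone, an alternative added after the values were seen, BAX came before MCL1 in each line, and other ranks changed too, so the order rests on which exons are counted.

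Over all exons, the rank of BBC3 differed most between lines. It was 3 of 10 in SCR with 1108 ± 47.5 (SD, n = 3) normalized counts per kilobase, and 7 of 10 in both G2 with 345 ± 57.1 (SD, n = 3) and WT with 388 ± 44.2 (SD, n = 2). With MANE Select lengths it was 4 in SCR and 6 in both G2 and WT, a difference no larger than those of BAK1 and BCL2L1. Over all exons, BID ranked 5 in G2 with 538 ± 46.4 (SD, n = 3), 4 in SCR with 964 ± 32.5 (SD, n = 3) and 3 in WT with 1029 ± 94.4 (SD, n = 2). BAK1, at rank 9 in SCR with 218 ± 16.2 (SD, n = 3), was at rank 6 in G2 with 351 ± 29.8 (SD, n = 3), where its range overlapped that of BBC3. Neighbours in the order that did not differ beyond their spread also included PMAIP1 and BCL2L1 in WT, with 710 ± 82.0 (SD, n = 2) and 772 ± 13.4 (SD, n = 2).

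To see whether a member moved with its surroundings, its log2 fold change was set beside those of the 20 nearest tested genes, 10 on each side on the chromosome. For BBC3, 0 of 20 neighbours had a lower value in G2/SCR, where their median was 0.01, and 20 of 20 had a lower value in SCR/WT, where their median was -0.26. BBC3 thus stood apart from the genes around it in both comparisons. BCL2L11 ran against its neighbours, whose median was 0.79 for G2/SCR and 0.81 for G2/WT, with 11 of 20 called higher in each. BAX was at -0.43 in G2/SCR beside a median of 0.47 for its neighbours. By contrast, BCL2 at 0.31 and PMAIP1 at 0.18 in G2/SCR were at about the medians of their neighbours, 0.31 and 0.19. The neighbours of BID had a median of -0.03 in G2/SCR, and 6 of 20 lay below BID itself. Those of BAK1 had a median of 0.27, and 16 of 20 lay below BAK1.

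**Figure D4:**
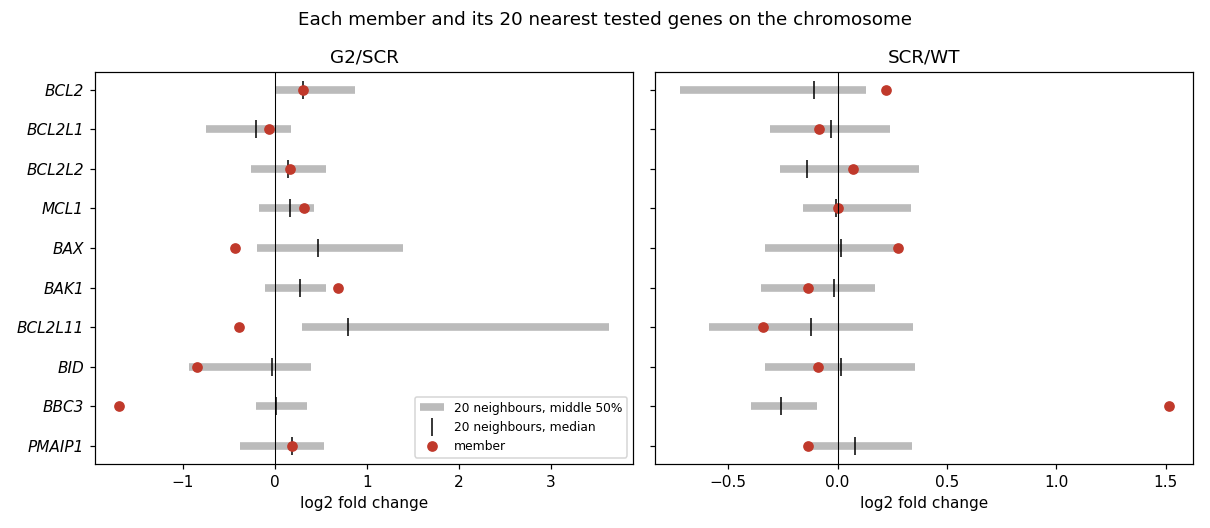
Log2 fold change of each family member (red point) with the median (tick) and the interquartile range (grey bar) of its 20 nearest tested genes on the chromosome, in G2/SCR and SCR/WT. BBC3 lies beyond the bar of its neighbours on opposite sides in G2/SCR (-1.69) and SCR/WT (1.52), and BCL2L11 and BAX lie below the bars of their neighbours in G2/SCR.

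The gene whose log2 values were most like those of a member over the 8 libraries was sought among the 13064 genes averaging 100 normalized counts or more. The libraries fall into 3 lines, so such a correlation mostly follows the means of the lines and is given as a description. For BID it was NKAIN1 (Pearson r = 0.998), with 1306 genes above an r of 0.9. For BBC3 it was ASB6 (r = 0.994), with 428 genes above 0.9. MCL1 was closest to LMAN1 (r = 0.997), BAK1 to LURAP1L (r = 0.992), BCL2L11 to RPS26P11 (r = 0.995), BCL2 to PPARA (r = 0.996) and BAX to SLC2A8 (r = 0.987). Fewer genes resembled PMAIP1, closest to ACER3 (r = 0.979, 98 genes above 0.9), BCL2L1, closest to CHMP7 (r = 0.951, 20 genes), and BCL2L2, closest to an entry without a symbol (r = 0.953, 10 genes). None of these 3 members was called in any comparison. The same was true of MCL1, BCL2 and BAX, with 1270, 385 and 296 genes above 0.9.

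Other genes of the apoptosis pathway were followed in 5 lists of 62 genes, all in the table, of which 55 passed the filter. Of the 55, 12 were called higher and 5 lower in G2/SCR (median log2 fold change 0.19). In G2/WT 16 were higher and 4 lower (median 0.33), and in SCR/WT 8 were higher and 8 lower (median 0.01). Of all tested genes 15.1% were called higher and 11.8% lower in G2/SCR. In G2/WT 17.7% of them were higher and 12.2% lower. In SCR/WT 10.7% of them were higher and 5.63% lower. Whether the lists differ from these shares was not tested. Scaling to the same total changed the counts in G2/WT to 25 higher and 1 lower, and in SCR/WT to 13 higher and 2 lower. Single genes are given below without this scaling, which shifted the median of all genes by 0.19 in G2/WT and 0.28 in SCR/WT. That upward shift exceeds the distance to the fold threshold of BIRC5 in both comparisons. The same holds for CASP6 and BCL2L12 in SCR/WT and for BIRC2 and TNFRSF10B in G2/WT. Whether these genes are called may thus depend on the scaling. Without G2 replicate 1 the count of genes lower in G2/WT was 2, and without WT replicate 1 that in SCR/WT was 5.

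**Figure D5:**
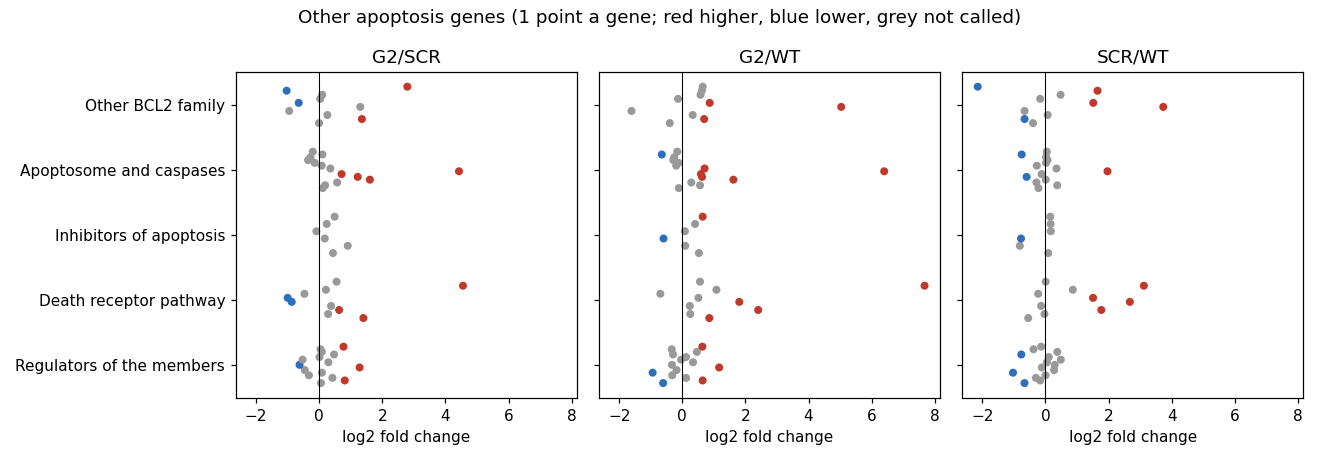
Log2 fold changes of the 55 tested genes in 5 lists of other apoptosis genes (1 point per gene, red called higher, blue called lower, grey not called) in G2/SCR, G2/WT and SCR/WT. The points farthest to the right in both G2 comparisons are the single genes TNFRSF1A (death receptor list) and CASP8 (caspase list). Their means were low in the controls, at 73.2 and 4.56 in SCR and 7.32 and 0 in WT. SCR/WT has as many points called lower as higher, 8 of each.

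Of the apoptosome and caspase genes, through which released cytochrome c acts, 4 of 14 tested were called higher in G2/SCR and 0 lower by limma, edgeR and DESeq2 alike, with 4 lower in limma at an unadjusted p below 0.05. In G2/WT 5 were higher and 1 lower, and in SCR/WT 1 was higher and 2 were lower. The median log2 fold change of the list was 0.15 for G2/SCR, 0.09 for G2/WT and 0.01 for SCR/WT. CASP6, an executioner caspase, was called higher by 1.22 on the log2 scale in G2/SCR and by 0.63 in G2/WT. It was also called lower in SCR/WT, at -0.60. CASP8, the initiator that cleaves BID, had a mean of 86.5 normalized counts in G2 and 4.56 in SCR and was at 0 in WT. CASP8 was named after its values were seen, because it acts on BID, and with levels this low no fold change is given.

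Among the other BCL2 family genes, 10 of 13 were tested, and 2 were called higher and 2 lower in G2/SCR and 3 higher and 2 lower in SCR/WT. In G2/WT limma called 3 higher and 0 lower, with 2 lower at an unadjusted p below 0.05. The medians were 0.07 for G2/SCR, 0.60 for G2/WT and -0.05 for SCR/WT. BCL2L12, an atypical member, had 1477 ± 32.5 (SD, n = 3) normalized counts in G2, 918 ± 137 (SD, n = 2) in WT and 579 ± 53.4 (SD, n = 3) in SCR, and was called higher in both G2/SCR (1.35 on the log2 scale) and G2/WT (0.69). HRK, a BH3-only gene of neurons, was called higher in G2/SCR at low levels, with 29.2, 49.3 and 36.5 normalized counts in G2 and 6.12, 2.82 and 5.29 in SCR. WT held 17.4 and 31.8 and overlapped G2. BCL2L13, a mitochondrial member that also acts in mitophagy, was not called, at 0.26 for G2/SCR and 0.33 for G2/WT. The BH3-only gene BMF and the effector-like BOK, both named after their values were seen, were called lower in G2/SCR (log2 fold changes -0.65 and -1.03) and higher in SCR/WT (1.52 and 1.65). HRK and BCL2L12 had the opposite calls, higher in G2/SCR and lower in SCR/WT (-2.14 and -0.66). In G2/WT, where BBC3 was at -0.18 and not called, BMF was called higher (0.87). BOK passed the fold threshold there (0.62) but was not called, with an unadjusted p of 0.0596 (limma).

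Inhibitors of apoptosis bind caspases or act beside them, and of 6 tested 0 were called in G2/SCR by limma, edgeR or DESeq2. In the limma fit 4 were higher at an unadjusted p below 0.05, short of the fold threshold. In G2/WT 1 was called higher and 1 lower, and in SCR/WT 1 lower and 0 higher by limma, with 0 higher there at an unadjusted p below 0.05. The medians were 0.34 for G2/SCR, 0.25 for G2/WT and 0.12 for SCR/WT. BIRC2 was not called at 0.44 on the log2 scale in G2/SCR and 0.53 in G2/WT. XIAP, the direct caspase inhibitor, was called in G2/WT at 0.65 but not in G2/SCR at 0.49. BIRC5, which encodes survivin, a protein of dividing cells, had 17912 ± 328 (SD, n = 3) normalized counts in G2, 27040 ± 217 (SD, n = 2) in WT and 15826 ± 362 (SD, n = 3) in SCR, and was called lower in both G2/WT (-0.59) and SCR/WT (-0.77).

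In the death receptor pathway, 3 of 10 tested genes were called higher and 2 lower in G2/SCR, and 4 higher and 0 lower in both G2/WT and SCR/WT by limma, with 0 and 1 lower there at an unadjusted p below 0.05. The medians of this list were 0.33 for G2/SCR, 0.71 for G2/WT and 0.44 for SCR/WT. TNFRSF1A, the main receptor of tumour necrosis factor, had 1609, 1750 and 1671 normalized counts in G2, 89.8, 46.0 and 83.9 in SCR and 8.69 and 5.96 in WT. The 3 lines did not overlap, and WT was near 0. CFLAR, which encodes FLIP, an inhibitor of caspase 8, was called higher in both G2 comparisons, by 1.40 on the log2 scale in G2/SCR and 0.86 in G2/WT. Its SCR/WT value was -0.55, below the fold threshold. TNFRSF10B, a receptor of TRAIL, had 2248 ± 147 (SD, n = 3) normalized counts in G2, 1584 ± 248 (SD, n = 2) in WT and 4482 ± 74.4 (SD, n = 3) in SCR. It was called 1.99-fold lower in G2/SCR and 2.83-fold higher in SCR/WT, the same calls as BBC3 had, and was at 0.51 on the log2 scale in G2/WT, below the fold threshold.

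Of 15 regulators of the family, 3 were called higher and 1 lower in G2/SCR, 3 higher and 2 lower in G2/WT, and 3 lower and 0 higher in SCR/WT by limma, with 4 higher there at an unadjusted p below 0.05. Their medians were 0.09 for G2/SCR, -0.04 for G2/WT and -0.11 for SCR/WT, each smaller in size than the shift that scaling to the same total brings. YWHAZ, a 14-3-3 protein that holds phosphorylated BAD in the cytosol, was called higher in both, at 0.77 on the log2 scale in G2/SCR and 0.64 in G2/WT. DDIT3 (CHOP), a stress factor that can induce BCL2L11 and BBC3, had 0.81 and 0.64, both called. Beside these, BCL2L11 had -0.39 and -0.73 and BBC3 had -1.69 and -0.18, of which -0.73 and -1.69 were called. A link of either gene to DDIT3 was not tested. DYNLL1, a dynein light chain that binds BIM, had 0.42 and 0.12 and was not called. FOXO3, a factor that can induce BCL2L11 and BBC3, was the 1 regulator called lower in G2/SCR, at -0.62 (adjusted p = 0.00026), and was not called at -0.32 in G2/WT (adjusted p = 0.028) and 0.30 in SCR/WT (adjusted p = 0.059). FOXO1, a related factor, was called higher at low levels in G2/SCR (1.28) and G2/WT (1.17), with means of 36.8 normalized counts in G2, 14.5 in SCR and 15.6 in WT. FOXO3 and FOXO1 were named after their values were seen.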

How the data were processed

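RNA-seq libraries of G2 (n = 3), SCR (n = 3) and WT (n = 2) SH-SY5Y cells were grouped by line from their labels. Per the labels and the methods, the authors aligned paired reads to hg38 with STAR 2.7.5a, counted them per FAST DB gene with featureCounts (Subread 1.5.0) and divided them by DESeq2 size factors. The deposited signal is this normalized count. The strand setting and the handling of reads over several genes are not given in the sources used here.

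Members were matched by symbol, and the members and lists were chosen with earlier results of these data known. Values were fitted as log2(value + 1) with limma 3.58.1 (R 4.3.3, trend, a mean per line over 8 libraries) for 18947 genes averaging 10 or more. Calls needed the study's thresholds, 1.5-fold and an unadjusted p of 0.05 or less. The scale understates changes of weakly expressed genes. Values written as "-fold" are ratios of group means. Whole counts were recovered for 100.0% of values and used with edgeR 4.0.16 and DESeq2 1.42.0 in G2/SCR as alternatives. The step of WT replicate 2, 0.992847, is too near 1 to check its recovery. Further alternatives were another pseudocount, filter, scaling, fold threshold, a replicate block, only the lines compared and each library left out. The fit was tested on simulated data. All members are named, and from each list the 3 genes of lowest p in G2/SCR, plus genes stated to be named later. Some genes that this rule picks are not reported here. The labels give no batch. Exon lengths and coding sequences came from GENCODE v44.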

Additional observations from a re-analysis of the deposited data

How the results depend on the processing

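Of 500 fold changes of members under the alternatives that keep the fold threshold, 482 kept their call and direction, 4 gained a call, 1 lost it and 13 changed sign, none of the 13 called. Most of the 500 were of comparisons not called at the outset. Those called at the outset kept their calls in these alternatives, except BCL2L11 in G2/WT, which kept it in 15 of 16. Calls in G2/SCR held in edgeR and DESeq2. Scaling to the same total shifted the median of all genes by -0.09 in G2/SCR, 0.19 in G2/WT and 0.28 in SCR/WT and the share of calls upward from 56.2% to 47.4%, 59.3% to 75.8% and 65.6% to 90.7%. In G2/WT it gave 2 members higher and 1 lower, 25 other apoptosis genes higher and 1 lower, and 1446 genes lower, with BCL2L1 at 0.034, BAX at 0.032 and BBC3 at 0.0071. In SCR/WT it gave 3972 genes higher and 409 lower, 13 other apoptosis genes higher and 2 lower, and BCL2L1 at 0.19, BAK1 at 0.14, BID at 0.19, PMAIP1 at 0.14 and PRPF40B at 0.16. A mean of at least 100 tested fewer genes and left 1161 lower in G2/SCR, 2107 higher and 1526 lower in G2/WT and 1001 higher in SCR/WT. A fold change of at least 2 left 1749 higher and 1202 lower in G2/SCR (0 members higher, 1 lower, BAK1 and BID no longer called), 2140 and 1036 in G2/WT (0 members lower, BID and BCL2L11 no longer called) and 1128 and 363 in SCR/WT. With 1 library left out, members called higher in G2/WT numbered 0 to 1 (BAK1 without G2 replicate 3, BCL2 without WT replicate 2), other apoptosis genes called lower 2 to 5 in G2/WT (2 without G2 replicate 1) and 5 to 9 in SCR/WT (5 without WT replicate 1). PMAIP1 ran from -0.071 (without WT replicate 1) to 0.16 in G2/WT. In SCR/WT BCL2 ran from -0.032 to 0.47, MCL1 from -0.10 to 0.11 (-0.015 without SCR replicate 3), BID from -0.19 to 0.0023 and PRPF40B from -0.23 to 0.0069, with the sign changed each time without WT replicate 1. The cause of these changes was not tested.

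The replicate numbers of the titles showed no pairing, since deviations of same-numbered libraries correlated at -0.01, -0.03 and 0.04 between G2 and SCR. The library names carry other numbers, and a pairing by those was not examined. A fit with the replicate block called 2835 genes higher and 2224 lower in G2/SCR, left the calls of the members as they were and turned MCL1 in SCR/WT to -0.0082. With 2 or 3 libraries per line, the precision is limited by the spread between so few libraries.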
